A study of Homo sapiens with 13 samples.

Results

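The genes described here were 3 FOXO transcription factors, FOXO1, FOXO3 and FOXO4, and 7 genes commonly listed as FOXO targets or as parts of the insulin pathway around them, IRS1, IRS2, PIK3IP1, TXNIP, SESN3, CCNG2 and BCL6. They were chosen by name, with earlier results of these data known, and all 10 were among the 43836 genes of the count table. After a filter on low counts 17092 genes were tested, 9 of the 10 among them, and SESN3 was too low to be tested. Messenger RNA had been sequenced from hFOB 1.19 osteoblasts, 1 immortalized line of human fetal bone-forming cells. The study asked how serum and plant polyphenols alter gene expression in these cells. Positive controls (PC, 2 libraries) were grown with 10% fetal bovine serum (FBS) and negative controls (NC, 2 libraries) without it, both with the vehicle DMSO per the study's methods. RES (3 libraries) is resveratrol, a stilbene, and POG (3 libraries) is peonidin-3-glucoside, an anthocyanin, and both were given to serum-starved cells. DEG (2 libraries, with 1 further labelled sample not analysed here) is a code that the labels do not spell out, although their protocol names delphinidin-3-glucoside beside the other agents. The serum condition of the DEG cultures is not given in the sources used here. The labelled dose of the compounds was 1 mcg/ml. Nothing in the labels says that libraries of a group came from separate cultures, so the p-values measure the spread between these libraries, which may be technical.

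FOXO factors are forkhead transcription factors that sit at the end of the insulin and insulin-like growth factor pathway. When serum or insulin is present, receptors signal through the IRS adaptor proteins to PI3K and AKT, and AKT phosphorylates FOXO proteins, which then leave the nucleus. When the signal is withdrawn, FOXO proteins return to the nucleus and switch on genes that slow the cell cycle, adjust metabolism and restore sensitivity to insulin, IRS2, PIK3IP1, CCNG2, BCL6 and SESN3 among them. Because this control acts on the protein, the amount of FOXO mRNA is not a measure of FOXO activity. FOXO factors are also known for their part in osteoblast survival and in the defence of bone cells against oxidative stress.

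The promoters of the 10 genes were read from RefSeq (GRCh38.p14), which held 16 windows for them, each running from 250 bases before to 50 bases after a transcription start. They are shown because members that moved in opposite directions with serum share the same short forkhead letters. TXNIP was higher with serum than in negative controls, and PIK3IP1 and FOXO4 were lower. With POG and with DEG, TXNIP and PIK3IP1 both rose and FOXO4 was not called. The forkhead core GTAAACA, searched on both strands, was found in 3 of the 16 windows (18.8%), 1 each of TXNIP, PIK3IP1 and FOXO4, in 12.5% of the windows of further FOXO targets, and in 3.42% of the 35116 promoters of the whole table. The AAAACAA letters of the insulin-response type occurred in 4 of the 16 windows (IRS2, CCNG2, BCL6 and SESN3), in 14.6% of those of the further targets and in 7.46% of all promoters. The BCL6 match lay in the window of a start inside the gene, and the BCL6 window nearer the 5′ end of the gene had none. Likewise the forkhead match of PIK3IP1 lay only in the window of the start farther into the gene. Its window nearer the 5′ end had none. The E-box CACGTG, a site type of the glucose-sensing Mondo factors and of many other factors, occurred in 2 of the 16 windows (IRS1 and CCNG2, 12.5%), in 20.8% of those of the further targets and in 7.26% of all promoters. No match was found for FOXO1 or FOXO3, which says only that these letters are not in the windows read. Capitals mark the matched letters in the gene's own 5′ to 3′ direction, so that TGTTTAC and TTGTTTT are GTAAACA and AAAACAA on the opposite strand.
TXNIP, chr1:145996657-145996743, minus strand: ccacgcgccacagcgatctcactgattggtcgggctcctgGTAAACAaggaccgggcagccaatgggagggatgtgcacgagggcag
PIK3IP1, chr22:31292459-31292512, minus strand: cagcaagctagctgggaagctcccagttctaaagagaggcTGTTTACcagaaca
FOXO4, chrX:71095834-71095880, plus strand: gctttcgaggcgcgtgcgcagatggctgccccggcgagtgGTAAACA
IRS2, chr13:109786578-109786664, minus strand: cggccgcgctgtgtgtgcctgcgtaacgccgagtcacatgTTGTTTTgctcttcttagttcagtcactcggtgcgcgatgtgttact
CCNG2, chr4:77157177-77157236, plus strand: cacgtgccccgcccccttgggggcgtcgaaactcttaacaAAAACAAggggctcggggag
BCL6, chr3:187736631-187736717, minus strand: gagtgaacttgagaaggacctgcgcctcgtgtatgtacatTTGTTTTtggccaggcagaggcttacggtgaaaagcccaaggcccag
The first base of the match lay 124 bases before the start in TXNIP, and at position 17 of the transcript in PIK3IP1 and position 24 in FOXO4. The CCNG2 window opens with its E-box in lower case. A match is a description of the letters, and binding was not measured.

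Library totals ran from 38464619 to 51416358 counted reads. Levels are given as CPM, which are counts relative to the library total, scaled between libraries by the trimmed mean of M-values (TMM), and differences as log2 fold changes from edgeR's exact test with the Benjamini-Hochberg false discovery rate (FDR) over all tested genes, called at FDR under 0.05. Mitochondrial reads were 3.64% and 3.91% of the positive control libraries and between 3.03% and 3.41% of the others. The osteoblast markers summed to 5523 and 5583 CPM in PC, 5304 and 5363 in NC, 4945 to 5071 with RES, 4780 to 4815 with POG and 4794 and 4799 with DEG, led by the type I collagen gene COL1A1 at a mean of 2845 CPM in negative controls, with RUNX2 at 47.1 CPM. Of the later markers, IBSP had 0 reads in both control groups and SP7 stood at 0.0629 CPM in negative controls. Leukocyte, epithelial, adipocyte and muscle markers each summed to at most 9.20 CPM in any library. The endothelial list summed to between 35.3 and 59.8 CPM, nearly all of it from the receptor gene TEK, while CDH5 and CLDN5 were at or near 0. TEK was higher than in negative controls in PC (log2 fold change 0.45) and RES (0.41) and lower in POG (-0.22). Whether the changes of TEK have a part in the results on FOXO genes was not tested. In bulk samples, fewer cells of a type and less RNA per cell cannot be told apart.

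FOXO3, the most abundant FOXO mRNA per length here, and FOXO4 were lower with serum than without, whereas FOXO1 was not called in any of the 10 comparisons. In negative controls the levels per kilobase of exon were 10.6 CPM for FOXO3, 6.10 CPM for FOXO4 and 1.15 CPM for FOXO1. FOXO3, which promotes stress resistance and cell death genes, stood at 64.1 and 75.5 CPM in PC, 80.8 and 81.9 in NC, 82.4, 79.95 and 82.7 with RES, 77.7, 77.5 and 80.3 with POG, and 82.8 and 80.6 with DEG. Both serum-fed libraries were below every other library, but they were far apart from each other. The log2 fold change of FOXO3 in PC as compared with NC was -0.22 ± 0.05 (SE; FDR 0.000176), and this call rested on the first positive control library, without which the change was -0.10 (FDR 0.0721), as compared with -0.33 without the second.

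FOXO4, which responds to the same AKT signal as its relatives, stood at 18.3 and 18.0 CPM in PC, 23.1 and 23.2 in NC, 19.2, 17.5 and 19.7 with RES, 22.3, 21.6 and 22.7 with POG, and 23.4 and 22.2 with DEG. The libraries formed a low set (PC and RES) and a high set (NC, POG and DEG) that did not overlap. It was lower with serum (-0.35 ± 0.07, FDR 4.21e-06) and lower with RES (-0.30 ± 0.06, FDR 0.00014) than in negative controls. With POG the difference from negative controls was -0.06 with a 95% interval of -0.18 to 0.07, and with DEG it was -0.02 with an interval of -0.16 to 0.12. FOXO1, the family member best known for control of glucose metabolism, stood at 6.70 and 6.97 CPM in PC, 7.10 and 6.59 in NC, 5.92, 5.86 and 6.80 with RES, 5.84, 6.65 and 6.05 with POG, and 7.05 and 5.09 with DEG. The groups overlapped, and the PC against NC difference was -0.0029 with a 95% interval of -0.26 to 0.26. FOXO1 shares exon sequence on the same strand with an unnamed long noncoding RNA gene, so that its count is uncertain.

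The insulin receptor substrates IRS1 and IRS2, which dock PI3K to the activated insulin and IGF receptors, moved in opposite directions with serum and in the same direction with POG. IRS1 stood at 96.2 and 107 CPM in PC, 68.5 and 69.7 in NC, 74.6, 74.5 and 68.6 with RES, 52.7, 50.03 and 51.6 with POG, and 57.0 and 60.2 with DEG. The serum-fed libraries were the highest and the POG libraries the lowest, with DEG next to POG and with RES overlapping the negative controls. IRS1 rose with serum by 0.55 ± 0.05 (FDR 6.25e-24), and fell with POG by 0.43 ± 0.05 (FDR 2.5e-15) and with DEG by 0.24 ± 0.05 (FDR 0.000508). The DEG call was lost without the first DEG library (-0.20, FDR 0.0723). For RES the change was 0.07, with a 95% interval of -0.03 to 0.17.

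IRS2, a gene that FOXO factors are known to induce when insulin is low, stood at 59.0 and 67.1 CPM in PC, 87.3 and 85.2 in NC, 82.1, 84.5 and 84.7 with RES, 76.5, 72.3 and 75.0 with POG, and 75.7 and 78.5 with DEG. Negative controls held the highest levels and no library of another group reached them, with RES closest. As compared with negative controls IRS2 fell with serum by 0.45 ± 0.05 (FDR 2.17e-17), and with POG by 0.21 ± 0.04 (FDR 0.000148). The smaller change with DEG (-0.16, FDR 0.0218) was lost when any of the 4 libraries was left out, with FDR values between 0.0694 and 0.282, and with plain library totals (FDR 0.0568). For RES it was -0.04 (95% interval -0.13 to 0.05). Per kilobase of exon, IRS1 stood at 10.1 CPM and IRS2 at 7.73 CPM in PC, while in NC the order was turned, with IRS1 at 6.90 CPM and IRS2 at 10.6 CPM. An unnamed gene overlaps an exon of IRS2 on the opposite strand. The strand setting of the authors' counting is not given in the sources used here, so reads of such partners cannot be told apart.

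PIK3IP1, a membrane protein that binds and restrains the catalytic subunit of PI3K, had the widest relative spread of levels between groups among the tested members. It stood at 8.05 and 9.06 CPM in PC, 15.3 and 16.7 in NC, 16.3, 18.1 and 17.3 with RES, 23.6, 23.1 and 23.2 with POG, and 21.5 and 21.3 with DEG. Serum-fed libraries were lowest, NC and RES overlapped in the middle, and all 5 libraries of POG and DEG were above them. As compared with negative controls PIK3IP1 fell with serum by 0.91 ± 0.08 (FDR 6.85e-25), a level 1.88-fold lower. It rose with POG (0.54 ± 0.07, FDR 2.59e-13) and with DEG (0.42 ± 0.08, FDR 2.68e-06). With RES it was 0.11 higher, with a 95% interval of -0.04 to 0.25. An exon of PIK3IP1 overlaps its divergent transcript PIK3IP1-DT on the opposite strand, and whether reads of that transcript are in the count is not known. The calls in PC, POG and DEG as compared with negative controls were kept under every alternative run.

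TXNIP binds thioredoxin and restrains glucose uptake, and its gene responds to glucose through the Mondo factors as well as to FOXO factors. Per length it was the most abundant of the 10 members, at 138 CPM per kilobase of exon in negative controls. It stood at 574 and 559.6 CPM in PC, 494 and 503 in NC, 535, 539 and 536 with RES, 727, 714 and 724 with POG, and 626 and 642 with DEG. Negative controls were the lowest and POG the highest, and no groups overlapped. TXNIP rose with POG by 0.53 ± 0.03 (FDR 8.27e-61), 1.45-fold, with DEG by 0.35 ± 0.03 (FDR 4.04e-21), and with serum by 0.19 ± 0.03 (FDR 5.13e-07). The rise with RES was 0.11 ± 0.03 (FDR 0.0111), and the call was lost without either negative control library (FDR 0.217 and 0.0645) or without the second RES library (FDR 0.0529).

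SESN3, a sestrin that restrains mTORC1, had 69 reads in all 12 libraries together and did not pass the filter. The reads were 2 and 1 in PC, 7 and 5 in NC, 8, 8 and 3 with RES, 7, 6 and 10 with POG, and 8 and 4 with DEG. The serum-fed libraries had the lowest counts. Pooled over libraries the level was 0.0328 CPM in PC and 0.153 CPM in NC, a ratio of NC to PC of 4.67 with an exact 95% interval of 1.26 to 25.8 that covers counting error only. With no filter on low counts SESN3 was not called in any comparison (PC against NC, FDR 0.224). The long noncoding RNA gene LNCRNA-IUR overlaps an exon of SESN3 on the opposite strand. Whether its reads are among those counted for SESN3 is not known.

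CCNG2 and BCL6, associated with arrest of the cell cycle and with transcriptional repression, had the largest falls with serum after PIK3IP1. CCNG2, an unconventional cyclin that is high in resting cells, stood at 37.7 and 39.0 CPM in PC, 60.7 and 61.3 in NC, 53.3, 51.8 and 54.1 with RES, 64.7, 60.03 and 61.3 with POG, and 57.8 and 59.7 with DEG. Serum-fed libraries were lowest, RES libraries lay between them and the rest, and POG overlapped NC. The fall with serum was -0.67 ± 0.05 (FDR 3.64e-37), 1.59-fold, and that with RES was -0.20 ± 0.04 (FDR 0.000317). The differences of POG (0.023, 95% interval -0.07 to 0.11) and DEG (-0.06, interval -0.15 to 0.04) from negative controls were not called.

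BCL6, a zinc finger repressor of transcription that FOXO factors are known to induce, stood at 50.3 and 45.7 CPM in PC, 79.8 and 77.3 in NC, 62.9, 61.2 and 60.7 with RES, 67.8, 70.9 and 67.9 with POG, and 75.7 and 74.0 with DEG. The 5 groups did not overlap and ran from PC through RES, POG and DEG to NC. The difference of DEG from its neighbour NC (FDR 0.453) was not called. Nor was that of DEG from POG (0.12, FDR 0.197), although its 95% interval of 0.03 to 0.21 left out 0. BCL6 fell with serum by 0.71 ± 0.05 (FDR 3.46e-44), 1.63-fold, with RES by 0.35 ± 0.04 (FDR 7.54e-13), and with POG by 0.19 ± 0.04 (FDR 0.000393). The change with DEG was -0.07 with a 95% interval of -0.17 to 0.03. Unnamed genes overlap exons of BCL6 on the opposite strand.

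**Figure D1:**
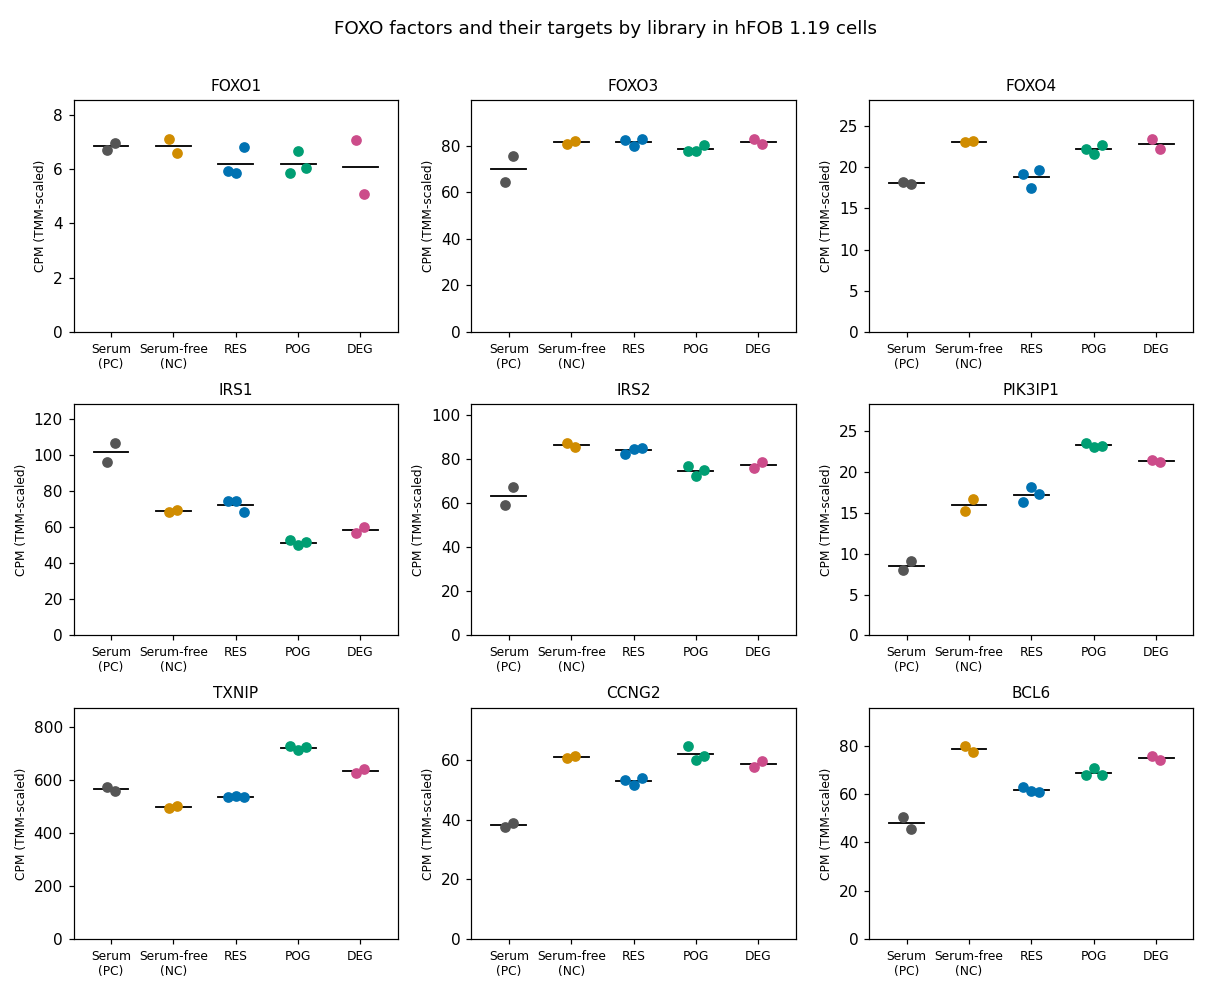
TMM-scaled CPM (y axis, from 0) of the 9 tested members in each of the 12 libraries, by group on the x axis, with 1 point a library and a black line at each group's mean. IRS1 is highest and PIK3IP1, CCNG2 and BCL6 are lowest in the 2 serum-fed libraries (PC), and TXNIP and PIK3IP1 are highest with POG.

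With serum as compared with negative controls, 6 of the 9 tested members fell, against 20.9% of all tested genes, and 2 rose, against 21.4% of all tested genes. The falls were FOXO3, FOXO4, IRS2, PIK3IP1, CCNG2 and BCL6, and the rises were IRS1 and TXNIP. The median change of the members was -0.35, as compared with -0.0059 over all tested genes. Because the members were chosen with earlier results of these data known, such counts and medians are a description. This holds for the other comparisons too. When plain library totals replaced TMM, 17.8% of all tested genes rose and 25.5% fell. The share of calls that were rises thereby went from 50.6% to 41.0%, and 8 members were called under either scaling. The members were grouped under a label that describes them as starvation-induced, but IRS1 and TXNIP were lower without serum than with it, and FOXO1 was not called. Without the first positive control library 7 members were called in place of 8.

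As compared with negative controls, 4 of the 9 tested members were called with RES, 3 that fell (FOXO4, CCNG2 and BCL6, against 6.21% of all tested genes) and 1 that rose (TXNIP, against 4.94%). With POG 3 members fell (IRS1, IRS2 and BCL6, against 8.57% of all tested genes) and 2 rose (TXNIP and PIK3IP1, against 5.93%). With DEG 2 members fell (IRS1 and IRS2, against 6.11% of all tested genes) and 2 rose (TXNIP and PIK3IP1, against 3.52%). The medians of the members were -0.04, -0.06 and -0.06, as compared with 0.0011, 0.0023 and 0.00083 over all tested genes. These comparisons share their 2 negative control libraries, so their values stand side by side and were not counted as separate evidence. Among all genes the balance of calls depended on scaling, since the share of calls that were rises went from 44.3% to 64.0% with RES, from 40.9% to 56.0% with POG and from 36.6% to 49.3% with DEG when plain library totals replaced TMM. The directions of the called members did not turn under plain totals. Of the 11 tested osteoblast markers 3 rose with serum as compared with negative controls, against 21.4% of all tested genes. Of the same markers 2 fell with RES (against 6.21%) and 4 fell with each of POG (against 8.57%) and DEG (against 6.11%). The part of these marker changes in the members' changes was not tested.

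**Figure D2:**
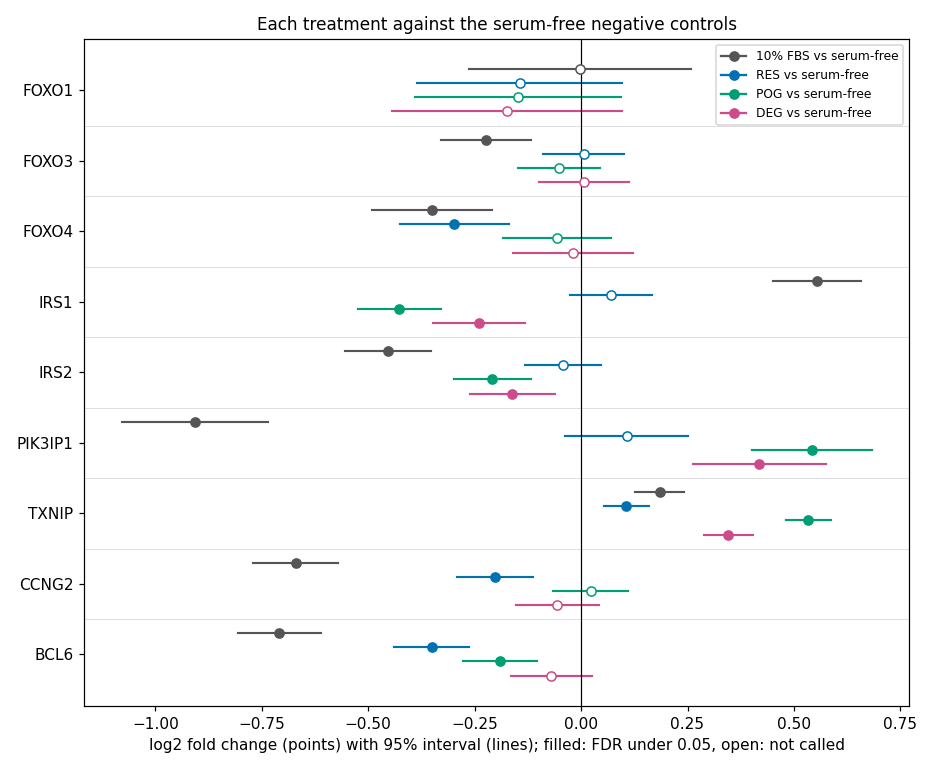
log2 fold change (x axis) of each tested member (y axis) in PC, RES, POG and DEG as compared with the serum-free negative controls, with 95% intervals as lines and filled points for FDR under 0.05. PIK3IP1 lies at -0.91 with serum and at 0.54 with POG, and IRS1 lies at 0.55 with serum and at -0.43 with POG.

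The 3 compounds were compared directly in 3 pairs, over all tested genes. As compared with RES, 5 members were higher with POG (against 13.7% of all tested genes) and 2 were lower (against 14.1%). The higher members were PIK3IP1 (0.43 ± 0.06, FDR 8.63e-12), TXNIP (0.43 ± 0.02, FDR 1.55e-50), FOXO4 (0.24 ± 0.06, FDR 0.000228), CCNG2 (0.22 ± 0.04, FDR 4.21e-07) and BCL6 (0.16 ± 0.04, FDR 0.000464). The lower ones were IRS1 (-0.50 ± 0.04, FDR 1.23e-26) and IRS2 (-0.17 ± 0.04, FDR 0.000442). For FOXO3 the difference was -0.06 with a 95% interval of -0.14 to 0.03, and for FOXO1 it was -0.0041 with an interval of -0.22 to 0.21. The anthocyanin glucoside and the stilbene thus differed at the same labelled dose in 7 of the 9 tested members.

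DEG as compared with RES had 5 higher members (against 10.3% of all tested genes) and 1 lower (against 10.8%). PIK3IP1 was higher by 0.31, TXNIP by 0.24, FOXO4 by 0.28, BCL6 by 0.28 and CCNG2 by 0.15, and IRS1 was lower, at -0.31. The CCNG2 call was lost without the second RES library (FDR 0.0629) or the second DEG library (FDR 0.185). IRS2 was at the threshold (-0.12, FDR 0.0501) and passed it with plain library totals (FDR 0.0366).

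Between DEG and POG 2 members were called, TXNIP lower with DEG (-0.19 ± 0.03, FDR 2.62e-06; 0.497% of all tested genes were lower) and IRS1 higher (0.19 ± 0.05, FDR 0.0309; 0.55% of all tested genes were higher). The IRS1 call was lost when edgeR's quasi-likelihood test replaced the exact test (FDR 0.0692), and in each of the 5 fits that left out 1 library (FDR between 0.0598 and 0.555). The other 7 members were not called, and their 95% intervals bound the differences. PIK3IP1 lay between -0.26 and 0.01, CCNG2 between -0.17 and 0.0097, BCL6 between 0.03 and 0.21, and IRS2 between -0.04 and 0.14. FOXO4 lay between -0.09 and 0.17, FOXO3 between -0.04 and 0.15, and FOXO1 between -0.27 and 0.22.

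**Figure D3:**
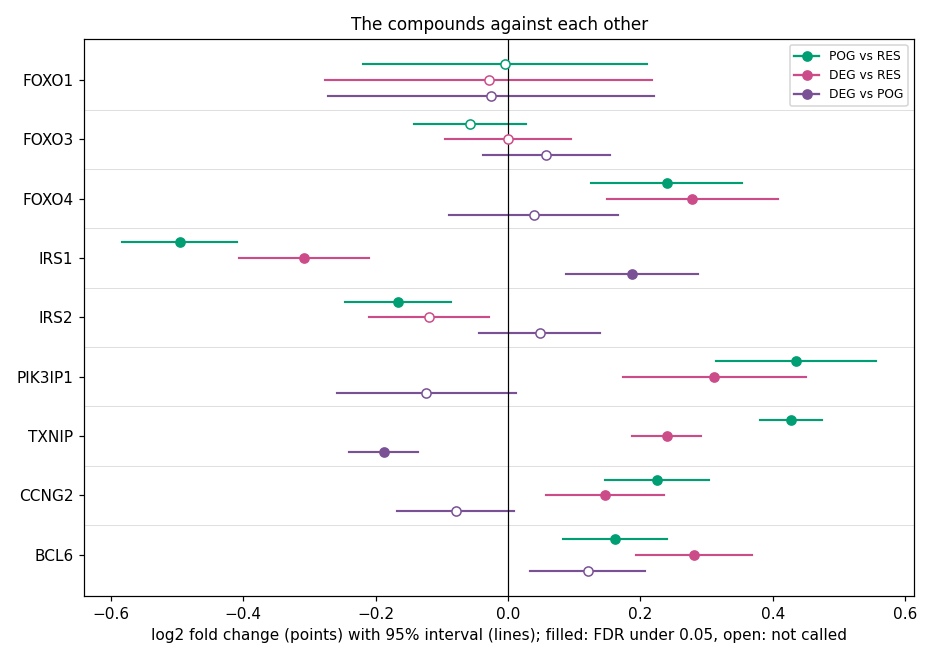
log2 fold change (x axis) of each tested member (y axis) between pairs of compounds, POG against RES, DEG against RES and DEG against POG, with 95% intervals as lines and filled points for FDR under 0.05. TXNIP is 0.43 higher and IRS1 0.50 lower with POG than with RES, and BCL6 is 0.28 higher with DEG than with RES.

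Serum-fed cells were also compared with each compound. Against RES 5 members were lower with serum (against 22.5% of all tested genes) and 2 higher (against 23.2%), against POG 7 were lower (against 23.8%) and 1 higher (against 24.2%), and against DEG 7 were lower (against 21.1%) and 1 higher (against 22.3%). IRS1 was higher with serum in all 3, by 0.48, 0.98 and 0.79 as compared with RES, POG and DEG. PIK3IP1 was lower in all 3, at -1.01, -1.45 and -1.33, and CCNG2 likewise, at -0.47, -0.69 and -0.61. TXNIP was lower with serum than with POG (-0.35) and DEG (-0.16). As compared with RES it was 0.08 higher (FDR 0.0271), a call lost with plain library totals (0.0085, FDR 0.857), with no filter, with dispersions from these groups alone, and without any 1 of the RES libraries. The FOXO3 call against POG was lost without the first positive control library (-0.06, FDR 0.343, and -0.29 without the second), and the FOXO3 changes against RES and DEG then fell in size from -0.23 in each to -0.11 in each. IRS2 was lower with serum than with POG by -0.24, and by -0.15 without the first positive control library. FOXO1 was called higher than with DEG (0.42, FDR 0.0193) without the first DEG library. Under plain library totals the share of calls that were rises with serum went from 50.8% to 34.8% against RES, from 50.4% to 36.7% against POG and from 51.3% to 37.7% against DEG.

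The closest relatives of the members were described as well. ARRDC4, an arrestin-family relative of TXNIP that also restrains glucose uptake, was higher than in negative controls in all 4 groups, by 0.45 in PC, 0.28 in RES, 0.55 in POG and 0.32 in DEG. Without the first negative control library the ARRDC4 change in PC was 0.29, and the RES and DEG calls were lost (FDR 0.613 and 0.499). SESN1, a relative of SESN3, fell with serum by 0.44 (FDR 1.42e-06), while SESN2 stood at -0.09 (FDR 0.231). FOXO6 was at -0.29 with serum (FDR 0.027), a call lost with DESeq2 (FDR 0.0589). CCNG1, a relative of CCNG2, was at -0.11 with serum (FDR 0.0237), 0.13 with POG (FDR 0.0107) and 0.17 with DEG (FDR 0.00246), each lost without the first negative control library. BCL6B was not called as compared with negative controls, and IRS4, with 2 reads in all libraries, was not tested. In all 3 rose and 5 fell of 10 tested relatives with serum (against 21.4% and 20.9% of all tested genes), 2 rose in RES (against 4.94%), 3 rose and 1 fell in POG (against 5.93% and 8.57%, and 3 and 0 with plain totals), and 2 rose in DEG (against 3.52%).

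The wider pathway was followed through lists of genes that do not include the members. Their counts stand beside the shares of all tested genes that rose and fell, which were 21.4% and 20.9% with serum, 4.94% and 6.21% with RES, 5.93% and 8.57% with POG, and 3.52% and 6.11% with DEG. Of 29 genes of insulin, PI3K and AKT signalling, 6 rose and 15 fell with serum (3 and 16 with plain library totals), RPTOR (0.29) and SGK1 (0.27) leading the rises and PIK3R3 (-0.56) and TRIB3 (-0.54) the falls. The rises were 20.7% of the list, near the share of all tested genes, and the falls 51.7%. With RES 0 of them were called by edgeR's exact test, by its quasi-likelihood test or by DESeq2, 7 had an unadjusted p under 0.05, and plain library totals called 2. With POG 2 fell, SGK1 (-0.48) and INPP4B (-0.36), and with DEG 1 rose and 2 fell, SGK1 (-0.40) the farthest. Of 23 regulators of FOXO proteins, 10 rose and 6 fell with serum (7 and 7 with plain totals), among them the 14-3-3 genes YWHAH (0.46) and YWHAQ (0.43), whose proteins hold FOXO in the cytoplasm, and the 14-3-3 gene SFN (-1.08). Of these regulators 2 rose with RES, 1 rose with POG, and 1 rose and 1 fell with DEG (1 and 0 with plain totals).

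Of 39 tested further FOXO targets out of 46 listed, 14 rose and 18 fell with serum, S1PR1 (1.32) and the cyclin gene CCND1 (1.12) leading the rises and ERBB3 (-0.78) and TP53INP1 (-0.68) the falls, with the cell death gene BCL2L11 at -0.61 and the cell cycle inhibitor CDKN1A at -0.46. Their median change was -0.09 and their median absolute change 0.27, beside -0.35 and 0.45 for the members, and the difference between the lists was not tested. The list was not divided by whether FOXO factors are known to raise or to lower a gene. With RES 5 rose and 3 fell (7 and 1 with plain totals), led by KLF2 (0.55). With POG 4 rose and 12 fell, and with DEG 3 rose and 7 fell, with IL7R at -0.72 and -0.49. Of 11 genes of the thioredoxin system, the Mondo factors and glucose entry, which surround TXNIP, 4 rose and 3 fell with serum, TXN (0.40) and SLC2A3 (-0.50) the farthest. With RES 3 of these fell, TXNRD1 (-0.39) and HK2 (-0.38) among them, with POG 1 rose and 3 fell, SLC2A1 at -0.29, and with DEG 1 rose and 1 fell. Of 15 proliferation genes 7 rose and 2 fell with serum (6 and 3 with plain totals) and 1 rose and 6 fell with RES (3 and 4). With POG 6 rose and 0 fell (9 and 0), and with DEG 4 rose and 1 fell (6 and 0). Without the first negative control library 0 of these were called with DEG, and 2 with RES. Their summed level was 3972 and 4083 CPM in PC, 3869 and 3883 CPM in NC, and between 3638 and 3691 CPM with RES. With POG it lay between 4080 and 4146 CPM, and with DEG it was 4024 and 4036 CPM. The part of the proliferation genes in the results on CCNG2 and the FOXO genes was not tested.

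**Figure D4:**
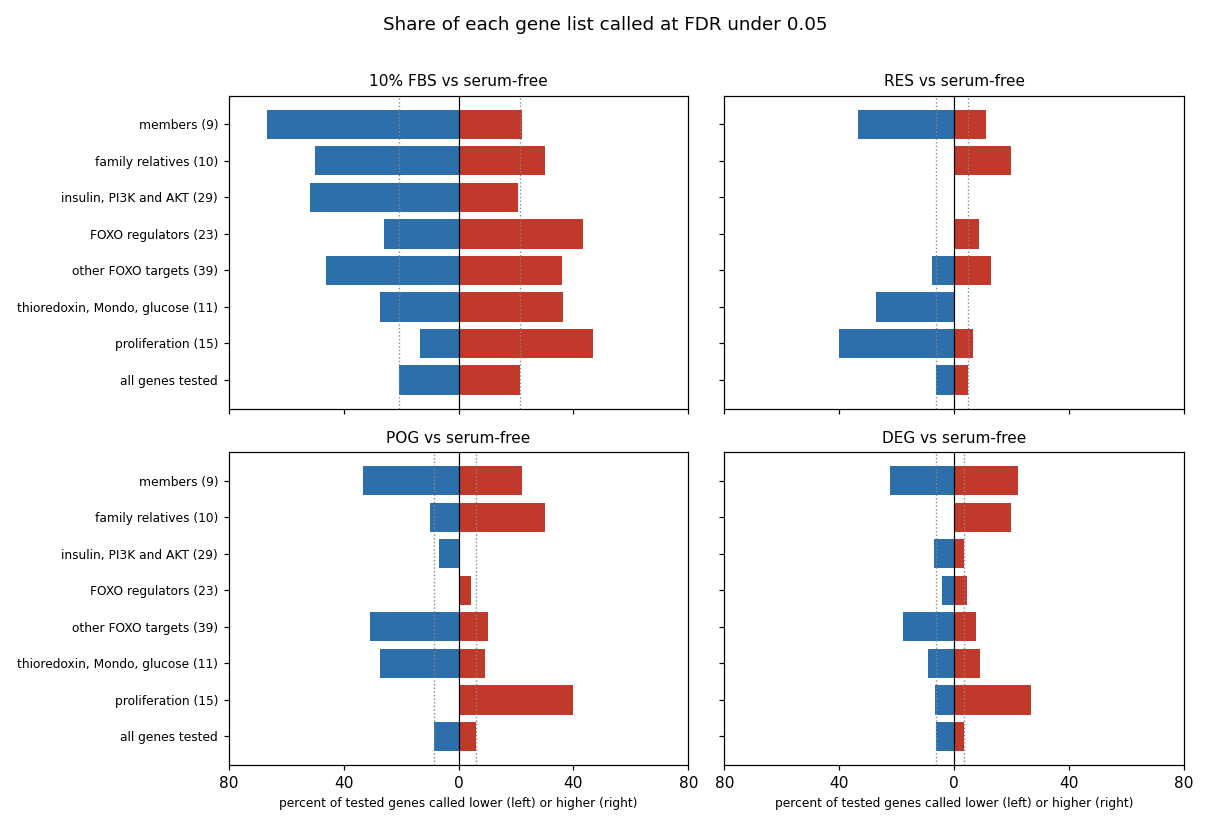
Share of the tested genes of each list (y axis, number tested in brackets) called lower (blue, to the left) or higher (red, to the right) in each treatment as compared with negative controls, in percent on the x axis, with dotted lines at the share over all tested genes. With serum 6 of the 9 members, a list chosen with earlier results of these data known, fell against 20.9% of all genes.

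For each member the genes most like it were found by Pearson's correlation of log2 CPM over the 12 libraries among 13397 genes whose mean reached 1 CPM. This is a description, because the libraries share their groups and the positive controls are far from the rest. The closest were RBM23 for BCL6 (r = 0.991), NEMP1 for PIK3IP1 (0.989), TGFBR1 for IRS2 (0.989), TIMP3 for IRS1 (0.987) and FADS1 for CCNG2 (0.985). For FOXO3, FOXO4, TXNIP and FOXO1 they were CHD6 (0.978), HSPA1A (0.953), SORCS2 (0.948) and GTF2H1 (0.859). IRS1 was also followed by GRB10 (0.985), an adaptor that binds the insulin and IGF receptors. Over the 10 libraries without the positive controls these values were 0.967 for RBM23, 0.953 for NEMP1, 0.964 for TGFBR1, 0.969 for TIMP3 and 0.922 for FADS1. They were 0.739 for CHD6, 0.936 for HSPA1A, 0.958 for SORCS2, 0.882 for GTF2H1 and 0.975 for GRB10.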

How the data were processed

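Messenger RNA was measured in 12 libraries of 5 groups. A single table of counts, raw and with 1 column a library, was deposited by the authors. Per the labels, polyA RNA was made into libraries with a Universal Plus mRNA-Seq kit and sequenced in pairs, and the submitters' processing notes name STAR, featureCounts, edgeR and build hg38. Whether counting used strand is not given in the sources used here. Symbols were matched by Ensembl identifier for 43214 of 43836 genes.

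Counts were tested with the exact test of edgeR 4.0.16 (R 4.3.3), which the study names, after TMM scaling (factors 0.961 to 1.01) and filterByExpr, with dispersions from all 12 libraries (common biological coefficient of variation 3.21%). The 17092 tested genes held 99.97% of the reads. Standard errors and 95% intervals came from edgeR's quasi-likelihood fit. All 10 pairs of groups were compared. Alternatives were the quasi-likelihood test, DESeq2 1.42.0, DESeq2 size factors, plain totals, no filter, a 1 CPM mean filter, dispersions from the compared groups, and leaving out each library. Scripts were tested on simulated data.

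Members and lists were chosen with earlier results of these data known. Relatives were named by a fixed list. Of each other list, at most 4 rises and 4 falls (2 each way in the other comparisons) were named by size, among called genes with at least 1 CPM in either group, and for each member at most 3 like genes. SOD2 matched no identifier. Exon lengths and overlaps came from GENCODE (hg38), and promoters from RefSeq.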

Additional observations from a re-analysis of the deposited data

Results flagged for a closer look

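IRS1 and PIK3IP1 were picked out because serum and the POG and DEG treatments moved them in opposite directions from the same negative controls, and the direct difference passed the test. IRS1 was higher with serum and lower with POG and DEG than in negative controls, and PC exceeded POG by 0.98 (95% interval 0.89 to 1.07) and DEG by 0.79 (0.69 to 0.90) on the log2 scale. PIK3IP1 was lower with serum and higher with POG and DEG, and PC differed from POG by -1.45 (-1.60 to -1.30) and from DEG by -1.33 (-1.49 to -1.16). Every PC, POG and DEG library lay outside the range of the 2 negative controls for both genes. Because the genes were picked by these same calls, the differences and the separation are a description and not further support. Without the first DEG library the change of IRS1 with DEG as compared with negative controls was -0.20.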

How the results depend on the processing

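No call of a member turned its direction under any alternative run. Counts of called members stayed within 1.5 times the value given except in 2 comparisons. With DEG as compared with negative controls 4 members were called, and between 2 and 3 when 1 library was left out, the lowest without the first DEG library. Between DEG and POG 2 were called, 1 under the quasi-likelihood test, and 1 without each library in turn, TXNIP each time. Single calls that were lost are given beside their results. BCL6 became called between DEG and POG with dispersions from those groups alone (FDR 0.019), and IRS2 between DEG and RES with that setting (FDR 0.00401) and with a mean of at least 1 CPM (FDR 0.0323). Outside the members, MKI67 with serum turned from -0.12 to 0.0131 without the first positive control library, and lay between that and -0.25 when each library was left out. Over all tested genes the number of calls moved by over 1.5 times in 5 comparisons. It went from 1906 to 881 for RES and from 2478 to 1362 for POG without the first negative control library, from 1646 to 850 for DEG and from 3616 to 2068 for DEG against RES without the first DEG library, and from 179 to between 32 (without that library) and 829 (dispersions from the compared groups alone) for DEG against POG. With those dispersions DEG as compared with negative controls had 2566 calls. List counts that moved as much ranged, for serum, from 5 to 8 relatives and 5 to 9 proliferation genes. For RES, POG and DEG in turn they ranged from 0 to 2, 1 to 4 and 0 to 4 relatives, and 0 to 5, 2 to 4 and 1 to 6 insulin pathway genes. In the same order they ranged from 0 to 3, 0 to 5 and 0 to 2 regulators, and 2 to 11, 5 to 11 and 0 to 10 proliferation genes. Further targets ranged from 3 to 12 for RES and 6 to 15 for DEG, while those for POG (11 to 20) stayed within 1.5 times. For POG and DEG the thioredoxin and glucose genes ranged from 2 to 4 and 0 to 3. Left with 1 library in a group, its spread was taken from the other groups. No paired analysis was possible because the labels give no shared replicate numbers. Groups of 2 or 3 libraries limit the precision, and SESN3 was too low in depth to test.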
